A study of Homo sapiens with 20 samples.

Results

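The interferon regulatory factor (IRF) genes were examined for RUNX1 binding in THP-1 cells, a line established from human acute monocytic leukemia, with and without lowered PU.1. The members were all RUNX1 peaks within 50 kb of the RefSeq span of IRF1, IRF2, IRF3, IRF4, IRF5, IRF7, IRF8 or IRF9 (assembly GRCh38.p14), which gave 21 of 26642 peaks. Of the 8 genes, 6 had at least 1 peak and 2, IRF4 and IRF8, had none in the table as analysed here. Chromatin immunoprecipitation with sequencing (ChIP-seq) against RUNX1 gave 12 libraries, 6 from THP-1 cells with a doxycycline-inducible shRNA against PU.1 (knockdown) and 6 from THP-1 cells with an inducible scramble shRNA (control). Both groups received doxycycline. The work was done in 2 experimental rounds, called batches, with 3 control and 2 knockdown libraries in batch 1 and 3 control and 4 knockdown libraries in batch 2. The study describes the libraries of a group as cell line replicates, each immunoprecipitated separately, but the labels do not say that they were separate cultures, so the p-values measure the spread between these libraries, which may be technical. Whether each shRNA line was 1 clone or a pool is not given in the sources used here, and the level of PU.1 is not measured by this assay. All 8 remaining samples of the series were IgG immunoprecipitations, which were not analysed here.

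IRF proteins share a DNA-binding domain that recognises GAAA-containing elements in the promoters of interferon-induced genes. IRF3 and IRF7 drive the type I interferon genes after sensing of nucleic acids, IRF9 is the DNA-binding subunit of the ISGF3 complex downstream of the interferon receptors, IRF1 is an interferon-inducible activator, and IRF2 competes with it for the same elements. IRF4 and IRF8 bind DNA weakly alone and pair with PU.1 at composite elements, and IRF8 is needed for the monocyte and dendritic cell lineages. IRF5 acts in inflammatory macrophages. RUNX1 is a DNA-binding subunit of core-binding factor and a known partner of PU.1 in myeloid cells.

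To show the sequence under these peaks, the 250 bases before annotated transcript starts were read from RefSeq (GRCh38.p14), where 5 of the 8 IRF genes had an entry. IRF2, IRF3 and IRF7, the IRF genes whose spans peaks overlap, had no entry. Whether those peaks lie at their starts could therefore not be read from the entries. The peak at the upper end of IRF2 also overlaps IRF2-DT, a gene not annotated as protein-coding. None of the 9 start windows of the IRF genes with an entry lay in a peak of the 50 kb windows. In these peaks lay 14 start windows of 11 neighbouring genes. An end of IRF2, of IRF3 and of IRF7 also lies in a peak, so these counts depend on which genes had an entry. The core RUNX hexamers TGTGGT and TGCGGT, searched on both strands, were found in 2 of these 14 windows, in 3 of the 9 IRF windows and in 16.3% of all 35116 start windows of this length. The 3 IRF windows with a match belong to IRF5 and IRF8 only, and several of the 9 windows are of the same gene. The IRF element, GAAA and GAAA with any 2 bases between them, was also searched on both strands. It was found in 2 of the 14 windows, in none of the 9 IRF windows and in 3.02% of all windows. The 2 matches are the same site, seen from the overlapping starts of PSME2 and RNF31. None of the 9 peaks that held such a window was called gained or lost (DESeq2 adjusted p under 0.05 and fold change over 1.1), beside 42.0% of all peaks. That share is not limited to peaks with a start window. All 9 lay near IRF3 or IRF9. The lost peaks at the ends of IRF2 and IRF7 were not among them, and these genes had no entry. Of the 13 peaks within 1 kb of an end of any protein-coding gene, with or without an entry, 4 were called. In the sequences below, capitals mark the matches, which are a description of letters and not binding sites. BCL2L12 is shown because its window crosses the IRF3 gene end in a peak, SCAF1 and MDP1 because their windows in peaks hold RUNX hexamers, PSME2 for the IRF element, and IRF1 and IRF8 as start windows outside peaks. The IRF8 window belongs to a start inside the gene span.
BCL2L12, chr19:49665683-49665932, plus strand: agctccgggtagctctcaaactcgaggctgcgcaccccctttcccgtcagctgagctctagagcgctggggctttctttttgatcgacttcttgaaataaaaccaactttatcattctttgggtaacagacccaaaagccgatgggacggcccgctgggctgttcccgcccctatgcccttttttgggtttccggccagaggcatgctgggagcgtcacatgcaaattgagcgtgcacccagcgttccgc
SCAF1, chr19:49641959-49642208, plus strand: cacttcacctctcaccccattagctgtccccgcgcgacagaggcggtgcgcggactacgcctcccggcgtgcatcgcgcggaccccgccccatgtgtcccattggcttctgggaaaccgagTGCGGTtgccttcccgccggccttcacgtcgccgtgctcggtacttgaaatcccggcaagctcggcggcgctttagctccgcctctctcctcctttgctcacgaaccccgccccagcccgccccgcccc
MDP1, chr14:24216067-24216316, minus strand: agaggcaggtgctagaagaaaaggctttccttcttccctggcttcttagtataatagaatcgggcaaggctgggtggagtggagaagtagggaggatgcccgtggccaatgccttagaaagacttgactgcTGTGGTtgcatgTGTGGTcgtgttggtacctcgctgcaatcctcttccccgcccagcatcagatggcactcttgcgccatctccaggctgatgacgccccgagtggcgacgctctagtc
PSME2, chr14:24146611-24146860, minus strand: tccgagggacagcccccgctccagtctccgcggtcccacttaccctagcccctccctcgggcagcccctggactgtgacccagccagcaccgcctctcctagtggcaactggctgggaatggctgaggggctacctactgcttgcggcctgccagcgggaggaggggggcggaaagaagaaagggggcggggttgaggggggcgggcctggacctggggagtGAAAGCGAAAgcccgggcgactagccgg
IRF1, chr5:132490774-132491023, minus strand: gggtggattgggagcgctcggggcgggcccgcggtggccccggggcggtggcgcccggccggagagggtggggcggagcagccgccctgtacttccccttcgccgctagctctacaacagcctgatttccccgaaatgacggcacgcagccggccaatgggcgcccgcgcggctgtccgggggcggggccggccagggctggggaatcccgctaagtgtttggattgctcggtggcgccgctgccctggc
IRF8, chr16:85902580-85902829, plus strand: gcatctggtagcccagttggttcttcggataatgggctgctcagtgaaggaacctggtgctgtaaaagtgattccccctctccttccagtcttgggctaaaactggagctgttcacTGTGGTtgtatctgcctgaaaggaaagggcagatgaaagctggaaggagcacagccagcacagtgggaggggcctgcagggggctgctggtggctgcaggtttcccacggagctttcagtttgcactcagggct

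Per library, 630247 to 1199004 reads fell into peaks in control cells and 938745 to 1719840 in knockdown cells. The knockdown libraries were thus deeper, and all libraries were also fitted after thinning to the smallest total. Thinning takes reads from control libraries too, so a call lost there does not isolate the part of the depth difference. Counts were divided by DESeq2 size factors (normalised read count). These centre the fold changes near 0, so a global gain or loss of RUNX1 binding would not be seen. A read count in a peak also does not tell binding in fewer cells from weaker binding per cell. The peaks near IRF genes were broad and well covered, with a median width of 1536 bp against 889 bp over all peaks and a median mean normalised read count of 53.2 against 31.2.

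Around the IRF genes, lowered PU.1 was accompanied by moderate changes of RUNX1 binding in both directions. Of the 21 peaks, 3 were gained and 5 were lost (DESeq2 adjusted p under 0.05 over all peaks and fold change over 1.1). These 8 calls make up 38.1% of the 21 peaks, beside 42.0% of all peaks (21.3% gained, 20.7% lost), so the share of calls was near the background. The log2 fold changes ran from -0.95 to 0.50 with a median of -0.052, against -0.025 over all peaks. No peak near an IRF gene changed more than 2-fold, and 4545 of all 26642 peaks were called with a larger change. The peaks near IRF genes had a smaller median standard error (0.16 against 0.21 over all peaks), and no peaks of like count were compared. In 2 of the 21 peaks all 6 knockdown libraries lay below all 6 control libraries, beside 23.3% of all peaks that were fully apart in either direction. Within both batches and in the same direction, 3 of the 21 were fully apart, beside 28.3%. Using edgeR, 9 of the 21 were called, beside 47.1%. Relative to the median log2 fold change of the 10 Mb around each peak, 7 were called, beside 41.7%. Among the 8 calls, those 33848 bp from IRF1 and at the end of IRF7 were the only ones that held under all 21 alternatives of fit, filter and library. After all libraries were thinned to the smallest total, the number of calls fell to 2. Both were losses, so none of the 3 gains and 2 of the 5 losses were called. The number fell to 3, 4, 4, 5, 5 and 5 without control replicates 4, 1, 5 and 6 and knockdown replicates 2 and 4, respectively. Fewer reads or libraries lower the power at every peak. The share of all peaks called in these settings was not counted, so these falls cannot be called particular to IRF genes.

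**Figure D1:**
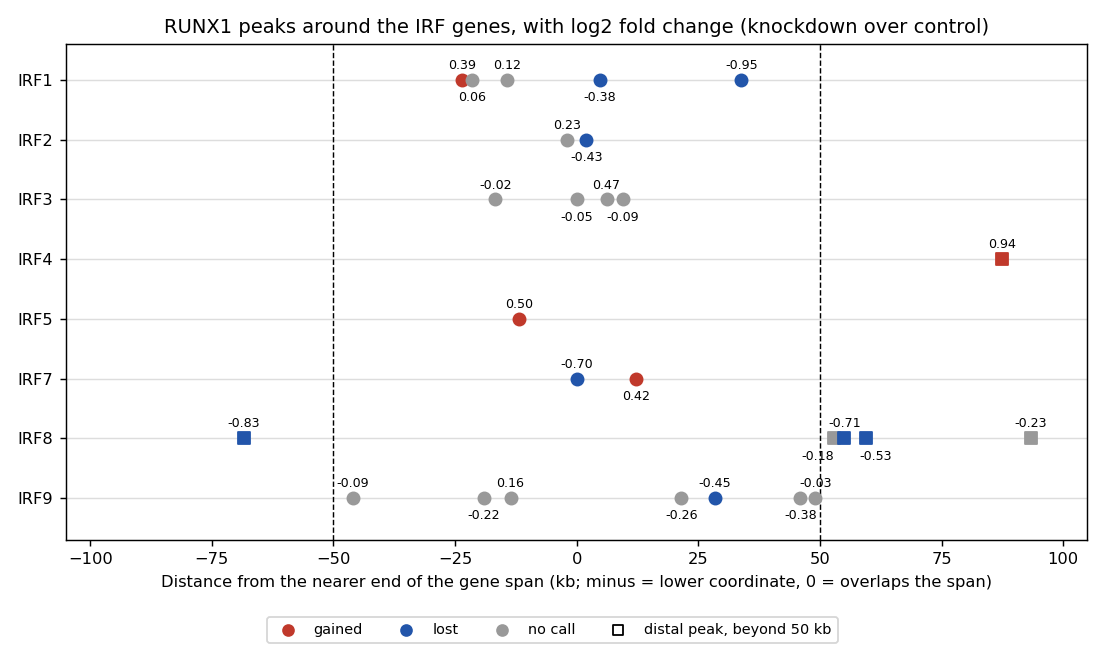
Position of each RUNX1 peak (x axis, kb from the nearer end of the gene span, 0 for peaks that overlap it, with the pair at IRF2 set apart by 2 kb to either side) for each IRF gene (y axis). Numbers give the log2 fold change of knockdown over control, red and blue mark gained and lost peaks, grey marks peaks without a call, and dashed lines mark 50 kb. IRF4 and IRF8 have peaks (squares) only beyond the dashed lines, and the 3 gained and 5 lost peaks within them are spread over IRF1, IRF2, IRF5, IRF7 and IRF9.

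IRF1, which encodes the interferon gamma-induced activator, had 5 peaks within 50 kb, and none of them overlapped the gene. RUNX1 binding fell at the 2 peaks on the side of the IRF1 start and rose at 1 of the 3 peaks beyond the other end, which lie within the long noncoding RNA gene CARINH. The largest change near any IRF gene was at chr5:132524621-132525977, 33848 bp from IRF1 and 15468 bp from an end of IL5, the gene of the eosinophil growth factor. Control libraries held 52.0 to 84.1 normalised read counts (median 71.5) and knockdown libraries 27.0 to 41.1 (median 37.7). Every knockdown library lay below every control library, in both batches. The mean fell from 70.2 ± 11.4 to 36.3 ± 5.03 (SD, n = 6 each), or 1.93 times lower (DESeq2 log2 change -0.95 ± 0.16 SE, adjusted p 4.8e-08). This loss was as large in batch 1 (-0.95 ± 0.31) as in batch 2 (-0.93 ± 0.24).

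Closer to IRF1, the peak at chr5:132495510-132497528 lay 4737 bp before the gene start. It held 54.8 to 85.8 (median 64.0) in control and 36.3 to 71.2 (median 42.7) in knockdown libraries. The groups overlapped, because both knockdown libraries of batch 1 (71.2 and 57.9) were within the control range, while the 4 of batch 2 were below it. The log2 fold change of -0.38 ± 0.16 SE passed the threshold (DESeq2 adjusted p 0.0374), with -0.13 ± 0.29 in batch 1 and -0.59 ± 0.23 in batch 2. This call is uncertain. It was lost without any 1 of control replicates 1, 4, 5 and 6 and knockdown replicates 2, 3, 4, 5 and 6 (DESeq2 adjusted p 0.0510 to 0.133), and relative to the median of the surrounding 10 Mb (0.0716).

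On the CARINH side, the peak at chr5:132456402-132458030 was gained, from 43.2 to 58.8 (median 54.9) in control to 56.7 to 74.0 (median 69.3) in knockdown libraries. Its log2 fold change was 0.39 ± 0.15 SE (DESeq2 adjusted p 0.0244), and knockdown libraries lay above control libraries within each batch. Without control replicates 4 or 6 or knockdown replicates 1 or 4 the call was lost (DESeq2 adjusted p 0.0607 to 0.0989). Of the other 2 peaks in CARINH, the one at chr5:132466202-132467306 was the strongest near any IRF gene per length of peak, with 110.3 normalised read counts per kb in control and 124.1 in knockdown cells. It was not called (121.9 ± 7.11 and 137.1 ± 19.7, log2 fold change 0.12 with a 95% interval of -0.086 to 0.33). Its neighbour at chr5:132458544-132460079 had a log2 fold change of 0.062 and was not called. Lost and gained peaks thus stood on either side of the same gene, and the summed count of the 5 peaks was 331.3 to 403.3 in control and 348.5 to 391.9 in knockdown libraries.

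**Figure D2:**
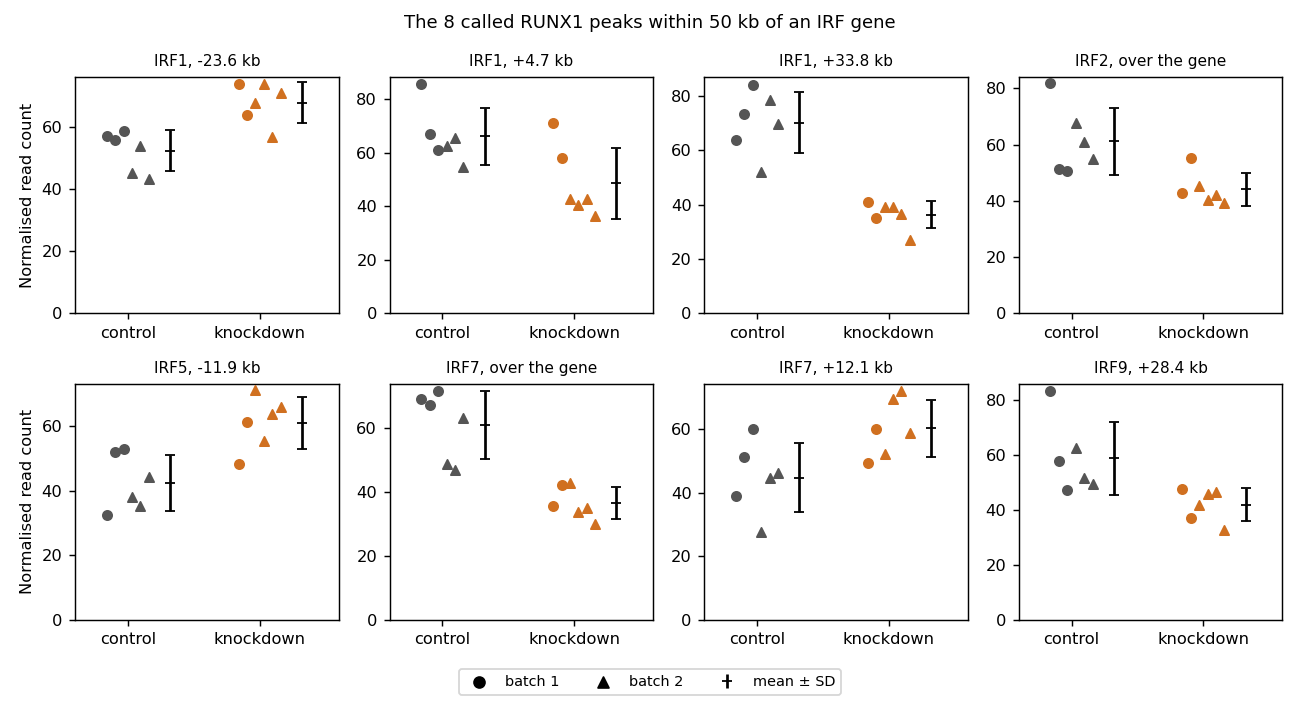
Normalised read counts (y axis) of the 8 called peaks within 50 kb of an IRF gene in each control and knockdown library, with circles for batch 1, triangles for batch 2 and bars for the mean ± SD (n = 6 each). Panel titles give the distance from the gene span in kb. Groups are fully apart in the IRF1 peak 33848 bp from the gene and in the IRF7 peak over the gene, and overlap in the other 6.

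IRF7, the factor that amplifies the type I interferon response, had 2 peaks, and they changed in opposite directions. At the upper end of the gene, chr11:615189-617308 overlaps IRF7 and CDHR5, a cadherin gene. Its counts fell from 46.9 to 71.4 (median 65.1) in control to 29.8 to 42.8 (median 35.3) in knockdown libraries. No knockdown library reached the lowest control library. The mean went from 61.0 ± 10.6 to 36.5 ± 5.02 (SD, n = 6 each), or 1.63 times lower (DESeq2 log2 change -0.70 ± 0.16 SE, adjusted p 8.7e-05). It was -0.81 ± 0.30 in batch 1 and -0.61 ± 0.25 in batch 2, and called in neither batch alone (DESeq2 adjusted p 0.0602 and 0.0521). Per length, this peak had the lowest level of the 21 in knockdown cells (17.2 per kb, from 28.8 in control).

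The second IRF7 peak, chr11:628070-629099, lay 12120 bp from the gene and 889 bp from an end of SCT, the secretin gene. It rose from 27.7 to 59.9 (median 45.4) in control to 49.3 to 72.0 (median 59.3) in knockdown libraries, and the groups overlapped. The log2 fold change was 0.42 ± 0.17 SE (DESeq2 adjusted p 0.0343). This call was lost without control replicates 1, 4, 5 or 6 or knockdown replicates 2, 4 or 5 (DESeq2 adjusted p 0.0622 to 0.151). The surroundings of IRF7 moved down as a whole, since the median log2 fold change of the 59 peaks in the 10 Mb around it was -0.27. Relative to that median, the log2 fold change of the peak at the gene end was -0.43 (adjusted p 0.0215, DESeq2 standard error) and that of the second peak 0.69 (adjusted p 2.5e-04). Both stayed called. What lies behind the shift of this region was not tested.

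IRF2, the competitor of IRF1, had 2 peaks, both over the gene. The one at its upper end, chr4:184473850-184475871, also overlaps IRF2-DT. Its counts fell from 50.7 to 81.9 (median 57.9) in control to 39.1 to 55.3 (median 42.5) in knockdown libraries. Only knockdown replicate 2, with 55.3, reached into the control range. The log2 fold change was -0.43 ± 0.16 SE (DESeq2 adjusted p 0.0229), and the call was lost without control replicates 1, 4 or 5 or knockdown replicate 1 (DESeq2 adjusted p 0.0590 to 0.0869). Inside the gene, chr4:184394474-184395345 had 33.5 ± 6.43 in control and 39.6 ± 9.97 in knockdown libraries (log2 fold change 0.23, 95% interval -0.17 to 0.62) and was not called.

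IRF5, a factor of inflammatory macrophages, had a single peak, 11891 bp before its start (chr7:128923421-128925141), and it gained RUNX1 binding. Control libraries held 32.5 to 53.0 normalised read counts (median 41.2) and knockdown libraries 48.4 to 71.3 (median 62.5). Knockdown replicate 1 was the only knockdown library within the control range. The mean rose from 42.5 ± 8.70 to 61.0 ± 8.10 (SD, n = 6 each), a log2 fold change of 0.50 ± 0.17 SE (DESeq2 adjusted p 0.00964). In batch 1 it was 0.27 ± 0.33 and in batch 2 0.69 ± 0.23. The call was lost without control replicate 5 (DESeq2 adjusted p 0.0535) and after thinning (DESeq2 adjusted p 0.0726).

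IRF3, which is activated by the kinase TBK1, had 4 peaks and no call. The peak at its end shared with BCL2L12 (chr19:49665470-49666578), whose sequence is printed above, held 59.8 to 114.5 in control (median 74.9) and 63.9 to 94.5 in knockdown libraries (median 76.0). The knockdown range lay within the control range, with a log2 fold change of -0.052 (95% interval -0.36 to 0.26). The peaks over RRAS and SCAF1 (chr19:49639671-49642831) and at PRMT1 (chr19:49675313-49678989) were the strongest in counts, with log2 fold changes of -0.022 (95% interval -0.25 to 0.20) and -0.091 (-0.32 to 0.14). A weak peak within BCL2L12 (chr19:49672002-49672713), with 15.7 ± 5.99 in control and 22.8 ± 5.57 in knockdown libraries, had a log2 fold change of 0.47 ± 0.27 SE and was not called. For the 2 strongest peaks these intervals leave room for changes of at most 0.32 on the log2 scale in either direction.

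IRF9, the ISGF3 subunit, lies in a gene-dense stretch with 15 protein-coding genes touching its window, and its 7 peaks sat at ends of neighbouring genes, none closer than 13601 bp. RUNX1 binding fell at 1 of them, over TM9SF1 (chr14:24194997-24196476), from 47.2 to 83.2 (median 54.6) to 32.6 to 47.5 (median 43.6), with a slight overlap of the groups. The log2 fold change was -0.45 ± 0.17 SE (DESeq2 adjusted p 0.0223), and the call was lost without control replicates 1 or 4 or knockdown replicates 2 or 6 (DESeq2 adjusted p 0.0553 to 0.119). The peak nearest IRF9, at the divergent starts of the proteasome activator gene PSME2 and the ubiquitin ligase gene RNF31 (chr14:24146250-24147664), holds the IRF element shown above. It was not called, with 69.2 ± 11.7 in control and 77.5 ± 10.1 in knockdown libraries (log2 fold change 0.16, 95% interval -0.11 to 0.44). The peak over NRL and DCAF11 (chr14:24113552-24115260) was the strongest in this window, with a log2 fold change of -0.094 (95% interval -0.36 to 0.17). Of the other 4 peaks, at EMC9, IPO4, CHMP4A and MDP1, none was called by DESeq2. The CHMP4A peak (DESeq2 adjusted p 0.0771) was called lost by edgeR (log2 fold change -0.36, edgeR adjusted p 0.0494). The MDP1 peak, whose start window holds 2 RUNX hexamers, had 45.7 ± 12.8 in control and 45.8 ± 8.21 in knockdown libraries.

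The effect was then read within each batch. All 8 called peaks had the same direction in both batches, but they were called on both batches together, which favours this. Of all 21 peaks, called or not, 16 had the same direction, beside 80.0% of all peaks. In batch 1 alone, 1 of the 21 peaks was called, the loss 33848 bp from IRF1, beside 12% of all peaks (edgeR 2, beside 27.3%). In batch 2 alone, 5 were called, beside 25.8% of all peaks (edgeR 8, beside 36.2%): the losses at 33848 bp and 4737 bp from IRF1, the gains at IRF5 and near SCT, and a peak over CHMP4A in the IRF9 window (chr14:24212546-24214217). The CHMP4A peak, named after its values were seen, had a log2 fold change of 0.17 ± 0.32 in batch 1 and -0.77 ± 0.23 in batch 2. The interaction of genotype and batch passed at none of these peaks, with 0 of 21 at a DESeq2 or edgeR adjusted p under 0.05 and 1 of 21, the CHMP4A peak, at an unadjusted p under 0.05 by either tool, beside 2.51% of all peaks by DESeq2. The call in batch 1 was lost without control replicates 2 or 3. It was also lost without either knockdown library, but the knockdown library then left alone is assumed to vary like the control libraries, so this says little about stability. Batch 2 gave 2, 1, 3, 3 and 3 calls without control replicates 4, 5 and 6 and knockdown replicates 4 and 5.

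**Figure D3:**
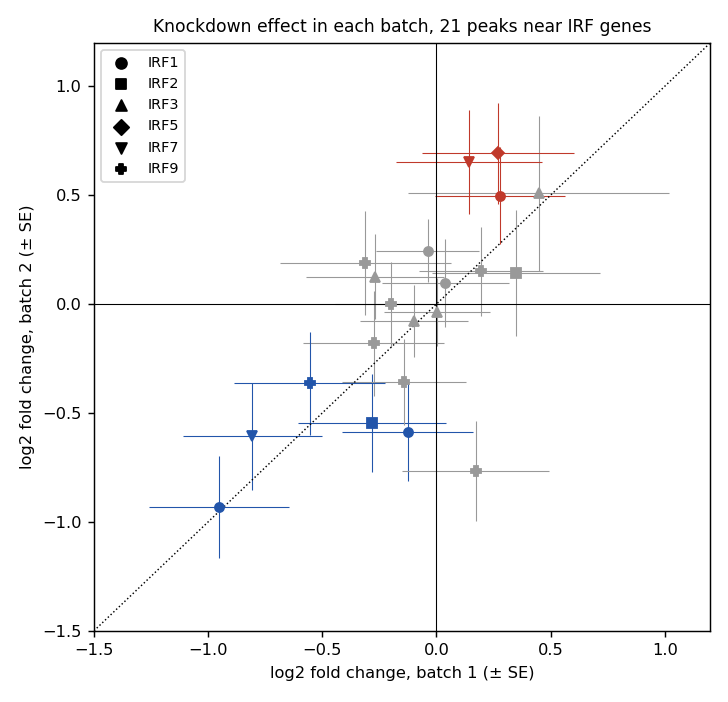
log2 fold change of knockdown over control in batch 1 (x axis) and batch 2 (y axis), each ± SE, for the 21 peaks near IRF genes, with red for gained, blue for lost, grey for no call, marker shapes for the gene and a dotted line of equality. All 8 called peaks lie in the lower left or upper right quadrant, which calling them on both batches together favours. The grey IRF9 peak at 0.17 and -0.77 is the CHMP4A peak.

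IRF8 and IRF4, the members that pair with PU.1, had no RUNX1 peak within 50 kb, as did 19.2% of 20037 protein-coding genes. The window was therefore widened to 100 kb for both, after the 50 kb windows had been seen to be empty. Around IRF8, 5 peaks lay between 52949 and 93405 bp from the gene, 3 of them were lost and none was gained, beside 20.7% of all peaks lost and 21.3% gained. At chr16:85829477-85830736, 68426 bp before the gene span and 22409 bp from COX4I1, control libraries held 90.2 to 110.5 normalised read counts (median 96.3) and knockdown libraries 42.8 to 66.5 (median 58.3). The groups were far apart in both batches. The mean fell from 98.5 ± 7.36 to 56.7 ± 8.70 (SD, n = 6 each), or 1.77 times lower (DESeq2 log2 change -0.83 ± 0.13 SE, adjusted p 1.5e-08). This loss was called in batch 1 (-1.13 ± 0.27) and in batch 2 (-0.61 ± 0.18) alone.

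Beyond the other end of IRF8, 3 peaks stood close together, with IRF8 the nearest protein-coding gene. The strongest of them, chr16:85982022-85983589, 59413 bp from the gene, went from 55.5 to 71.6 (median 59.0) to 35.6 to 49.4 (median 43.2). Again no knockdown library reached the control range. The mean fell from 60.9 ± 6.47 to 42.6 ± 4.52 (DESeq2 log2 change -0.53 ± 0.16 SE, adjusted p 0.00290). At chr16:85977644-85978778, counts of 20.8 to 41.5 (mean 31.9 ± 8.89) in control and 15.2 to 27.0 (mean 20.3 ± 4.35) in knockdown libraries overlapped, with a log2 fold change of -0.71 ± 0.23 SE (DESeq2 adjusted p 0.00737). These 3 losses remained called without any 1 library (highest DESeq2 adjusted p 0.0423), and the last was lost only after thinning (DESeq2 adjusted p 0.187). The nearest peak to IRF8, chr16:85975558-85976575, and the farthest, chr16:86016014-86016742, held about 20 normalised read counts and were not called, with log2 fold changes of -0.18 (95% interval -0.65 to 0.29) and -0.23 (-0.72 to 0.26). The surroundings were level, as the 10 Mb around these peaks had a median log2 fold change of -0.010 to 0.00082. Whether any of these regions acts on IRF8 is not measured by this assay.

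**Figure D4:**
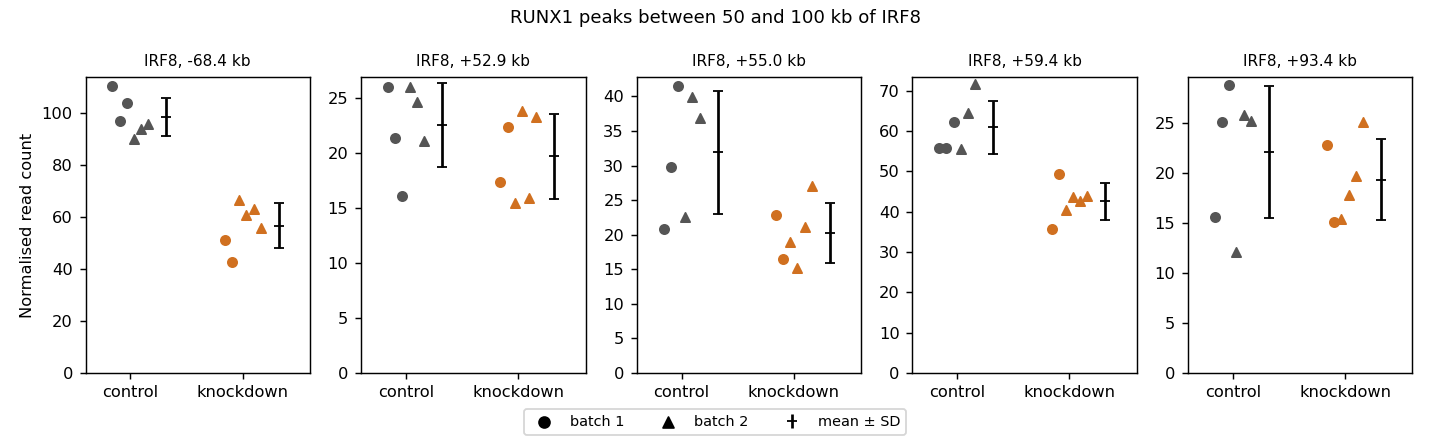
Normalised read counts (y axis) of the 5 RUNX1 peaks between 50 kb and 100 kb of IRF8 in each library, with circles for batch 1, triangles for batch 2 and bars for the mean ± SD (n = 6 each). The knockdown libraries lie below all control libraries at the peaks 68426 bp before and 59413 bp beyond the gene and overlap them in the other 3 panels.

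At IRF4, the only peak within 100 kb lay 87500 bp away within EXOC2 (chr6:498943-499414) and was weak. It held 3.52 to 9.48 normalised read counts in control and 8.31 to 18.3 in knockdown libraries (DESeq2 log2 change 0.94 ± 0.35 SE, adjusted p 0.0215). The groups overlapped through knockdown replicate 3. This call was lost without control replicate 5 or knockdown replicates 1 or 5 (DESeq2 adjusted p 0.0548 to 0.0937), after thinning (0.114) and relative to the median log2 fold change of 0.16 in the surrounding 10 Mb (0.0634), and is uncertain.

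The pattern over libraries that was most like the loss next to IRF1 (Pearson's r of log2 counts over 12 libraries, among 6859 peaks outside the windows with a mean of at least 50) was found within LMTK2 (chr7:98132951-98133960, r = 0.970), within PCF11 (chr11:83155573-83158607, r = 0.967) and 8910 bp from CTNNA3 (chr10:67772504-67773529, r = 0.965). Their log2 fold changes were -1.01, -0.78 and -1.30. The libraries share the genotype contrast, so such likeness is a description.

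The other genes of the interferon pathway were read out in 3 lists. Near 9 receptor, kinase and STAT genes lay 41 peaks, of which 4 were gained and 13 lost, or 41.5% called beside 42.0% of all peaks, with a median log2 fold change of -0.26. All 3 peaks near JAK2, the kinase of the interferon gamma receptor, were lost, the strongest call falling from 48.3 ± 12.7 to 23.5 ± 1.33 (log2 fold change -1.06). Near IFNAR1, a chain of the type I interferon receptor, 1 of 6 peaks was gained and 2 were lost. The gained peak, 9507 bp from the gene, rose from 13.9 ± 5.83 to 44.0 ± 6.52 (DESeq2 log2 change 1.66 ± 0.24 SE, adjusted p 2.7e-10). Near 17 activators and partners of IRF proteins, 17 of 72 peaks were gained and 11 lost (38.9% called). The strongest call there was a gain 27281 bp from TRAF6, an adaptor of Toll-like receptor signalling, from 28.0 ± 9.64 to 73.1 ± 5.15. Near 49 interferon-stimulated genes, of which 43 had a peak, 17 of 107 peaks were gained and 19 lost (33.6% called). They included a loss from 29.8 ± 6.72 to 3.38 ± 1.72 at 35917 bp from RSAD2, the viperin gene, and a gain from 12.2 ± 5.53 to 50.5 ± 9.68 within MX2, an antiviral GTPase gene. These single peaks were picked after their values were seen. The lists held changes over 2-fold in both directions. The IRF windows held none among their 21 peaks, which are fewer than in any list. No difference between lists, or between them and the IRF windows, was tested.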

How the data were processed

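RUNX1 ChIP-seq was available for 12 libraries (6 control, 6 knockdown). The authors used bowtie2 for alignment, discarded duplicate reads and reads off the primary chromosomes, found peaks with macs2 for each batch and condition, filtered them for reproducibility (IDR) and, after merging the conditions, assigned reads to them by featureCounts. The deposited file holds these raw counts, and peak width as other information. Peaks were thus found on the libraries compared. The methods name a mouse build for these human cells, the submitters' processing notes list it beside GRCh38, and the coordinates were read as GRCh38. The RefSeq gene table used gives no strand or exons, so distances are to gene ends where no start entry gave the strand.

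All 26642 peaks were tested together with DESeq2 1.42.0 (R 4.3.3), batch as covariate, and p-values adjusted by Benjamini-Hochberg. Intervals are 95% Wald intervals. Described by name were, per gene, the peak nearest the start (or an end), the strongest, all called, and the one with the largest change at a mean count of at least 20, plus the 5 IRF8 peaks and 1 IRF4 peak within 100 kb, added after the data were seen. The other peaks of the windows are given to account for all 21, and were picked for mention after their values were seen. The 3 most alike peaks were those with the highest correlation of log2(normalised count + 1). Members and lists were chosen with earlier results of these data known. Alternatives were edgeR 4.0.16, other size factors, covariates, filters, thresholds and windows, thinning, centring on the surrounding 10 Mb and leaving out each library. Both tools were tested on simulated counts. No library was a duplicate, as chi-square over degrees of freedom between libraries of a group was 1.29 to 2.24, where sampling noise alone gives about 1. Replicate numbers did not pair the samples.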

Additional observations from a re-analysis of the deposited data

Results flagged for a closer look

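The 20 peaks described by name, in 2 groups of 6 libraries each, were examined for single libraries set apart from the rest of their group (Dixon's criterion). Of the 40 groups, 1 stood out, where chance gives about 1 in 20. Knockdown replicate 2 held 55.3 normalised read counts at the peak over the upper end of IRF2, and the other knockdown libraries held 39.1 to 45.1. Without this library the log2 fold change was -0.53 (DESeq2 adjusted p 0.0153).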

How the results depend on the processing

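The 8 calls near IRF genes became 5 with the replicate number as a block, 5 with at least 10 counts in every library, 2 after thinning, 3 at an adjusted p under 0.01, 0 at a fold change over 2, 5 of 13 peaks with a window of 20 kb, 15 of 46 with 100 kb, and 3 to 8 without each library. For the block, the count filter, thinning and left-out libraries, the share of all peaks called was not counted. Batch 1 gave 2 calls with edgeR and 0 to 1 without each library, batch 2 gave 8 with edgeR and 1 to 5 without each library. The causes were not tested, apart from those of the other windows and stricter thresholds, which act by construction. Fewer peaks were tested with at least 10 counts, which gave 15 calls for the activators and partners and 20 for the interferon-stimulated genes, and all other settings stayed within 1.5 times the counts of the 3 lists.

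The replicate numbers share no pairing in the labels, and the correlation of deviations of same-numbered libraries ran from -0.084 to 0.24. Of 14 named peaks within 50 kb, 2 of the 8 calls passed under all 21 alternatives and none of the 8 reversed. Uncalled peaks at 2 places turned in sign: the RRAS and SCAF1 peak to 0.046 with at least 10 counts, 0.060 after thinning, and 0.046, 0.020 and 0.0013 without control replicates 1 and 6 and knockdown replicate 6 (-0.071 to 0.046 without each library), and the IRF3 end peak to 0.015 with at least 10 counts, and 0.100 and 0.023 without control replicate 2 and knockdown replicate 2 (-0.156 to 0.100 without each library). The farthest IRF8 peak turned to 0.097 after thinning. The shallowest library held 630247 in-peak reads, and over the 21 peaks the fold changes had a median standard error of 0.16 on the log2 scale.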
